A study of Rattus norvegicus with 4 samples.

Results

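The genes described here are 36 named antioxidant and glutathione genes, measured in pancreatic islets of rat pups after intrauterine growth restriction (IUGR). They are dismutases, catalase, peroxidases, peroxiredoxins, thioredoxins, glutathione enzymes, NRF2 regulators and metallothioneins. They were named with earlier results of these data known, and the rule that finds them uses the gene names on the array and no measured value. Of the 36 genes, 35 had a probe of that exact name, on 39 of the 30367 probes of the array, and all 35 were among the 20012 genes tested. Glutaredoxin (Glrx) is printed on the array under its older name Glrx1, so its values are given beside the others and are not counted.

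The IUGR islets came from 14-day-old Sprague Dawley pups of dams whose uterine arteries had been ligated on both sides at embryonic day 18. The control islets came from 14-day-old pups of sham-operated Sprague Dawley dams. Each of 4 arrays held 1 IUGR and 1 control sample in different dyes, with IUGR in Cy5 on arrays 1 and 2 and in Cy3 on arrays 3 and 4. Array 1 held IUGR replicate 2 and control replicate 1, array 2 IUGR replicate 1 and control replicate 2, array 3 IUGR replicate 4 and control replicate 3, and array 4 IUGR replicate 3 and control replicate 4. The labels state neither sex, nor animals per sample, nor litters, so p-values measure the spread between these samples only. In whole islets, fewer cells of a type and less RNA per cell cannot be told apart.

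Superoxide dismutases turn superoxide into hydrogen peroxide, which catalase, the glutathione peroxidases and the peroxiredoxins then remove. Thioredoxin and glutathione supply the reducing power, drawn from NADPH by thioredoxin reductase and glutathione reductase. The transcription factor NRF2, held back by KEAP1, drives many of these genes through antioxidant response elements (ARE), and zinc drives metallothionein genes through metal response elements (MRE). Islets are known for low levels of several of these enzymes, among them catalase and glutathione peroxidase.

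Promoter letters were read for the genes with an entry in a RefSeq promoter table of assembly GRCr8, each covering 250 bases before and 50 bases after the start. Of the 35 genes, 30 had one; Sod3, Prdx6, Txnip, Hmox1 and Gsr had no entry. The ARE core searched on both strands was TGACNNNGC, and 11 of the 30 genes (36.7%) held it, against 13.1% of the 27457 genes of the table. The following 5 windows are shown because they hold the core upstream of the start in genes known as NRF2 targets or redox enzymes. Each is written 5′ to 3′ on the strand that carries the motif, with the ARE core in capitals. The windows lie at chr1:210769743-210769781 (minus strand), chr2:213031948-213031986 (minus), chr5:135383756-135383794 (minus), chr6:101230034-101230061 (plus) and chr7:22755959-22755997 (plus) of GRCr8.
Gstp1: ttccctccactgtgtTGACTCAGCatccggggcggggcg
Gclm: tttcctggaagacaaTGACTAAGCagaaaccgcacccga
Prdx1: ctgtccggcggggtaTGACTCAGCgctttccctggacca
Gpx2: agaaTGACTTAGCgaaaccaggtaccca
Txnrd1: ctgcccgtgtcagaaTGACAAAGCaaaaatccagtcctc

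The base of the core farthest from the start lay 61 bases upstream in Gstp1, 172 in Gclm, 135 in Prdx1, 13 in Gpx2 and 78 in Txnrd1. The same core was present upstream in Sod2, Mt1a and Mt2A, across the start in Prdx5 and after the start in Prdx4 and Nfe2l2. Keap1, Gclc, Gss, Srxn1, Txn1, Txnrd2 and Nqo1 held no such letters in this window, which says nothing about elements farther away.

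The MRE core, TGCACNC or TGCGCNC on either strand, was present in 7 of the 30 genes (23.3%), against 26.3% of all genes of the table. Mt1a (RefSeq symbol Mt1) held 6 matches and Mt2A held 4, whereas 0.503% of all genes held 4 or more. No MRE match overlapped an ARE match in the genes that held both. Both metallothionein promoters are shown for this cluster of matches, as the 250 bases before the start, with the MRE cores of either strand in capitals. They lie on the minus strand of GRCr8, at chr19:10832976-10833225 and chr19:10838709-10838958.
Mt1a: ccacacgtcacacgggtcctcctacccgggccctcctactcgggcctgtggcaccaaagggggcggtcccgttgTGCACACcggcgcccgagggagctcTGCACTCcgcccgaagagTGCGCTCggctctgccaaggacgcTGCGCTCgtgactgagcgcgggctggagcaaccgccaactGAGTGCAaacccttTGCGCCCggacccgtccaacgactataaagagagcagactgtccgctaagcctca
Mt2A: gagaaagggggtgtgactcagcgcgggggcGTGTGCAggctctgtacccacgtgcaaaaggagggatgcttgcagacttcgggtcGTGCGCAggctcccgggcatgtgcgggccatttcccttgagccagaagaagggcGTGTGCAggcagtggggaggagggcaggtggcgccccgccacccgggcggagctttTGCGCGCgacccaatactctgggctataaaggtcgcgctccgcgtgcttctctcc

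Values are given on 2 scales. A level is the normalised log2 intensity of 1 channel, and a ratio is the log2 of IUGR over control on an array, with the standard error (SE) of the limma fit over 4 arrays. None of the members passed the threshold for a difference between IUGR and control islets: 0 of 35 had limma's Benjamini-Hochberg adjusted p under 0.05, as did 0% of all genes tested. The lowest adjusted p among the members was 0.339. At an unadjusted p under 0.05, 7 members (20%) were counted, against 13.7% of all genes tested. Of these, 5 were higher in IUGR (14.3% of the members, against 7.13% of all genes) and 2 were lower (5.71%, against 6.55%). The 7 were Srxn1, Txnrd2, Gss, Keap1 and Mt2A with a positive ratio, and Gclc and Txn1 with a negative one. On the rat assembly rn4, per the file headers, their probes lie at chr3:142462543-142462602 (Srxn1), chr11:84517830-84517889 (Txnrd2), chr3:146058010-146059080 (Gss), chr8:20260496-20260555 (Keap1), chr8:82762574-82762633 (Gclc), chr5:75921410-75922750 (Txn1) and, for Mt2A, the stretch given with its sequence. Srxn1 and Gclc lie on the plus strand and the others on the minus strand. The spans of Gss and Txn1 exceed the 60 bases of a probe, and no annotation of exons in rn4 was used here. Each fit without 1 array kept the dye term and left 1 residual degree of freedom, set by the 2 arrays that share a dye. The count of 7 was 14 without array 1 (7 higher and 7 lower, 40% of the members, against 31.0% of all genes), 1 without array 2 (2.86%, against 4.67%), 0 without array 3 (against 2.31%) and 3 without array 4 (8.57%, against 10.6%). It was 2 with median centring in place of loess, with 0 higher and 2 lower (5.71%, against 5.85%). It was 3 (8.57%, against 11.03%) in a fit of separate channel levels, with the replicate number as a block and no pairing by array. Of these, 0 were higher and 3 lower, and 1 was among the 7.

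The ratios of the members were small, as were those of the array at large, with a median absolute ratio of 0.16, against 0.14 over all genes. The median ratio of the members was 0.02, against 0.01 over all genes tested, with 19 above and 16 below 0. Of the 35, 25 lay within 1.2-fold either way, and the largest was 1.45-fold. Median centring in place of loess moved the members' median to -0.25 and that of all genes to -0.05, and turned the sign of 13 members. With loess, the 95% interval lay inside 1.5-fold in either direction for 26 members. The share of all genes inside these fold bounds was not counted. All 4 arrays gave a ratio above 0 for 6 members (17.1%), against 11% of all genes tested, and below 0 for 5 (14.3%), against 9.68%. Those above 0 throughout were Sod1, Srxn1, Txnrd2, Keap1, Gss and Mt2A, and those below were Gpx1, Prdx2, Txn1, Gclc and Gclm. Gclm passed the filter only through its control channels, with 0 IUGR channels well above background. Its place in the count of 5 therefore carries no weight. The levels of IUGR and control samples did not overlap for 2 members, Gclc and Txn1, where 2.98% of all genes tested showed no overlap.

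**Figure D1:**
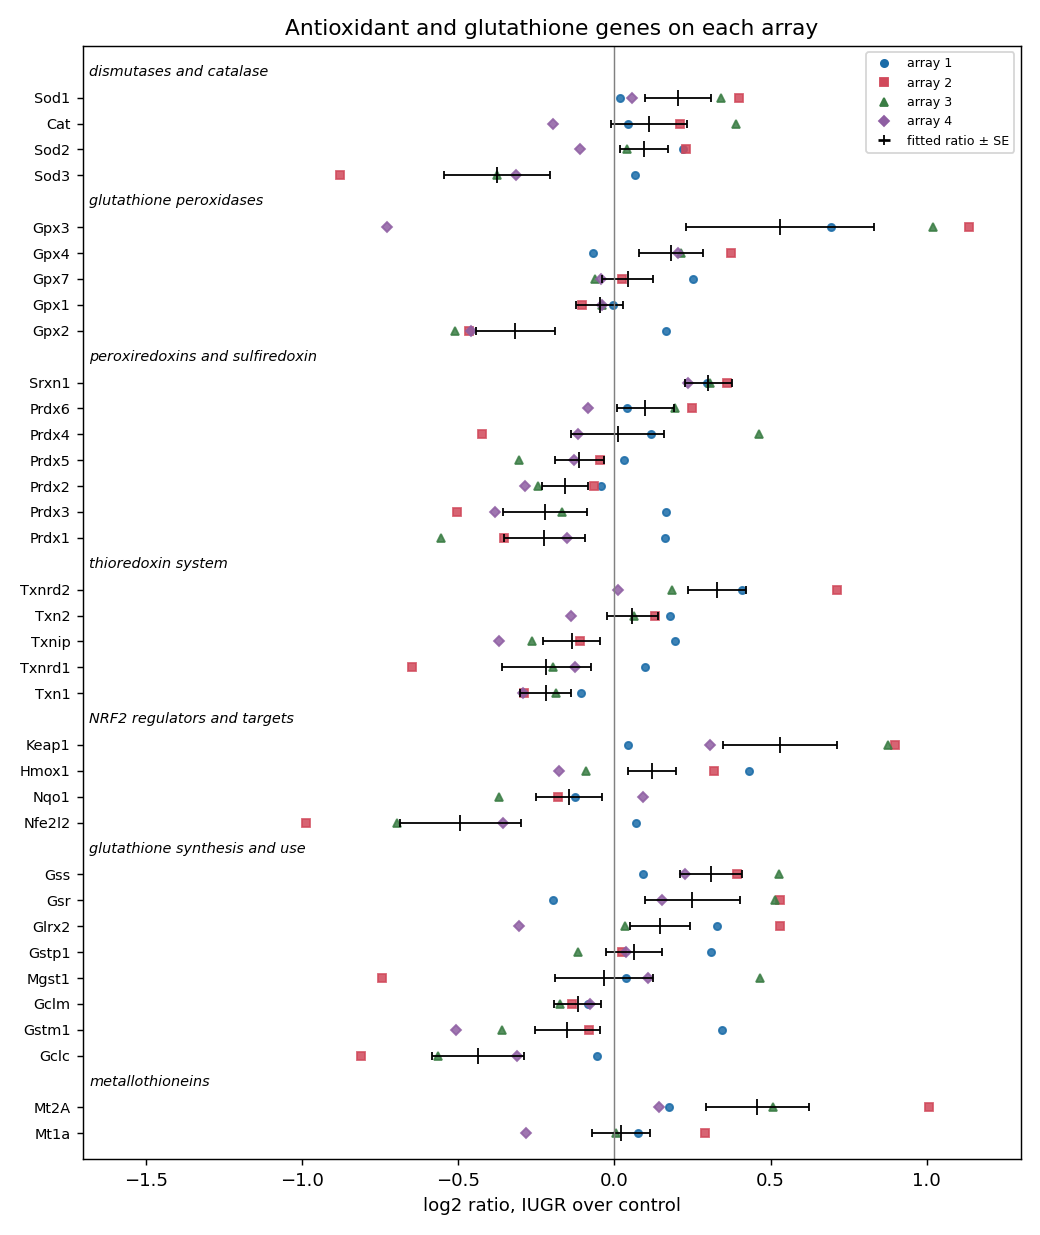
Log2 ratio of IUGR over control (x axis) of the 35 genes, grouped by role (y axis); the coloured points are the 4 arrays and the black bars the fitted ratio ± SE. Gclm, which was not well above background in any IUGR channel, is drawn as measured. The points of Srxn1 lie close together above 0, while those of Gpx3, Mgst1 and Prdx4 lie on both sides of 0.

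The dismutases and catalase showed no common direction, with 3 ratios above 0, 1 below and 0 of 4 at an unadjusted p under 0.05. Sod1, the cytosolic copper-zinc dismutase, had levels of 14.39, 14.73, 14.67 and 14.59 in the IUGR samples of arrays 1 to 4, against 14.37, 14.33, 14.33 and 14.54 in the control samples. Its ratio was 0.20 ± 0.11 and above 0 on all 4 arrays, although near 0 on arrays 1 and 4, at 0.02 and 0.06. Sod2, the mitochondrial manganese dismutase, had levels of 10.11, 10.06, 9.83 and 9.81 in the IUGR samples of arrays 1 to 4, against 9.89, 9.83, 9.79 and 9.92 in the control samples. Its groups overlapped, at a ratio of 0.10 ± 0.08. Cat, catalase, which splits hydrogen peroxide in peroxisomes, had levels of 8.01, 7.98, 8.33 and 7.98 in the IUGR samples of arrays 1 to 4, against 7.97, 7.77, 7.95 and 8.18 in the control samples. The ratio of Cat was 0.11 ± 0.12, above 0 on arrays 1 to 3 and -0.20 on array 4. Sod3, the secreted dismutase, had the most negative ratio of this group at -0.38 ± 0.17, with 0.07, -0.88, -0.38 and -0.31 on arrays 1 to 4 and an unadjusted p of 0.0815 in limma.

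Among the glutathione peroxidases, 3 ratios were above 0 and 2 below, and 0 of 5 had an unadjusted p under 0.05. Gpx1, the abundant cytosolic form, had ratios close to 0 on every array, with levels of 13.46, 13.07, 13.41 and 13.27 in the IUGR samples of arrays 1 to 4, against 13.47, 13.17, 13.45 and 13.31 in the control samples. Its 95% interval ran from -0.24 to 0.15 around a ratio of -0.05 ± 0.08. Gpx4, which reduces lipid peroxides in membranes, had a ratio of 0.18 ± 0.10 and Gpx7, a peroxidase of the endoplasmic reticulum, one of 0.04 ± 0.08. The gastrointestinal form Gpx2 was lower in IUGR on arrays 2, 3 and 4 and higher on array 1, at 0.17, -0.47, -0.51 and -0.46. Gpx3, the secreted plasma form, had ratios of 0.69, 1.13, 1.02 and -0.73, and array 4, whose control sample had the highest level of all 8 samples at 10.65, had the opposite sign to the others. Its fitted ratio of 0.53 ± 0.30 was 0.97 without array 4 and 0.09 without array 3. These fits kept the dye term, so the array left alone in its dye weighed more than each of the others. Without array 3 that was array 4.

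Peroxiredoxins reduce hydrogen peroxide with thiols, and sulfiredoxin (Srxn1) repairs those that become overoxidised. Srxn1 had nearly the same ratio on every array, with levels of 10.25, 10.61, 10.20 and 10.32 in the IUGR samples of arrays 1 to 4, against 9.95, 10.25, 9.89 and 10.09 in the control samples. Each IUGR sample lay above the control sample of its array, by 0.30, 0.36, 0.31 and 0.24, while the groups as a whole overlapped. The fitted ratio was 0.30 ± 0.08 (1.23-fold), with a 95% interval from 0.10 to 0.50, an unadjusted p of 0.0114 and an adjusted p of 0.339 in limma. With median centring in place of loess its ratio was -0.033. Prdx1, a cytosolic peroxiredoxin, had levels of 12.63, 12.47, 12.30 and 12.52 in the IUGR samples of arrays 1 to 4, against 12.47, 12.82, 12.85 and 12.67 in the control samples. Its IUGR samples were lower on arrays 2 to 4 and higher on array 1, for a ratio of -0.22 ± 0.13. The mitochondrial Prdx3 had the same order of signs, at 0.17, -0.50, -0.17 and -0.38. Prdx2, another cytosolic form, was below 0 on all 4 arrays, at -0.04, -0.06, -0.24 and -0.29, with a fitted ratio of -0.16 ± 0.07. Prdx5 had a ratio of -0.11 ± 0.08, Prdx6 of 0.10 ± 0.09 and Prdx4, the form of the endoplasmic reticulum, of 0.01 ± 0.15. None of the 6 peroxiredoxins had an unadjusted p under 0.05.

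In the thioredoxin system, 2 ratios were above 0 and 3 below, with 1 higher and 1 lower at an unadjusted p under 0.05 in limma. The sign of Txnrd1 depended on the probe, and its values are given with the genes of more than 1 probe. Txn1, cytosolic thioredoxin, had levels of 13.82, 13.79, 13.82 and 13.88 in the IUGR samples of arrays 1 to 4, against 13.93, 14.08, 14.00 and 14.17 in the control samples. The highest IUGR sample, at 13.88, lay below the lowest control sample, at 13.93. Its ratio was -0.22 ± 0.08 (0.859-fold), with an unadjusted p of 0.0448. Txnrd2, the mitochondrial thioredoxin reductase, had levels of 8.78, 8.70, 8.25 and 8.0 in the IUGR samples of arrays 1 to 4, against 8.37, 7.99, 8.07 and 7.99 in the control samples. Its ratios were 0.41 and 0.71 on the arrays with IUGR in Cy5 and 0.18 and 0.01 on those with IUGR in Cy3. The fitted ratio, the mean of the 4 arrays, was 0.33 ± 0.09 (unadjusted p 0.018 in limma). The dye term took the difference between these pairs of arrays out of the SE only. The pairs also held different samples, so dye and sample cannot be told apart. The mitochondrial thioredoxin Txn2 had a ratio of 0.06 ± 0.08. Txnip, which binds thioredoxin and is strongly induced by glucose in beta cells, had levels of 11.27, 10.98, 11.70 and 11.30 in the IUGR samples of arrays 1 to 4, against 11.07, 11.09, 11.96 and 11.66 in the control samples. The Txnip groups overlapped, and its ratio was -0.14 ± 0.09.

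**Figure D2:**
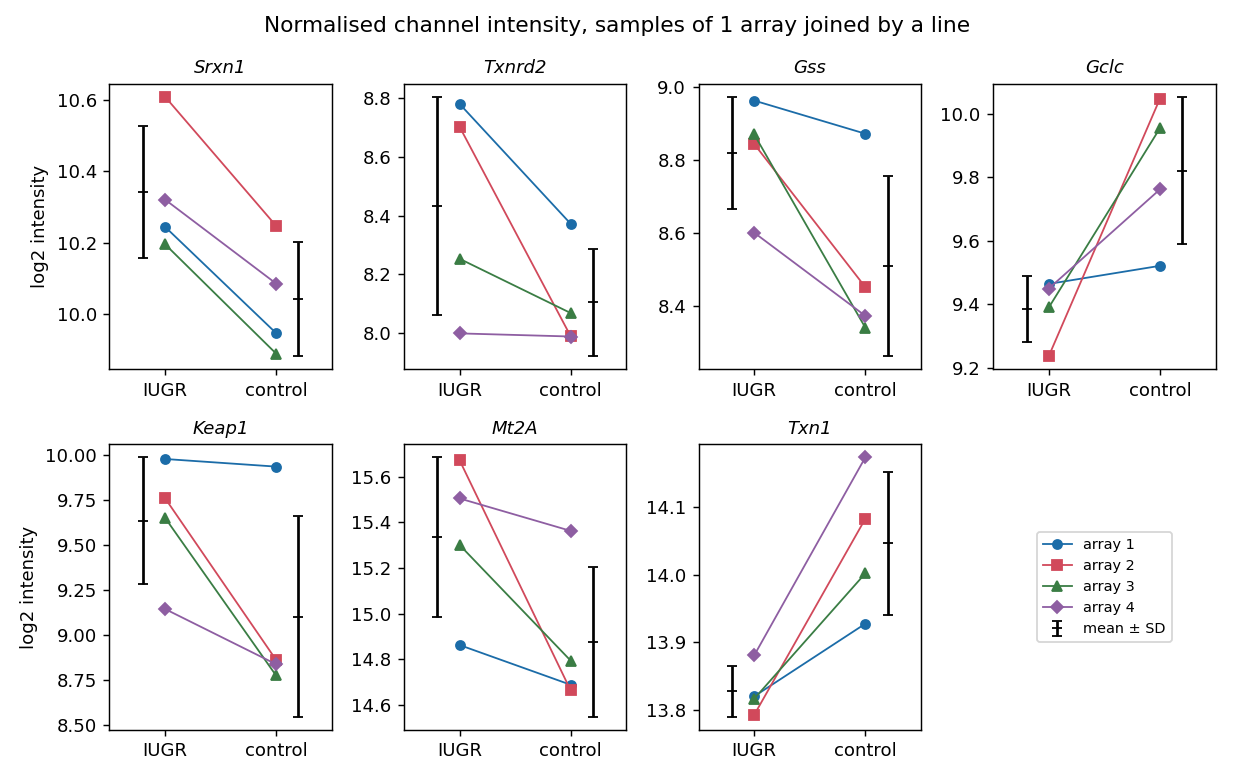
Normalised log2 intensity (y axis) of the IUGR samples on the left and the control samples on the right for the 7 genes with an unadjusted p under 0.05; lines join the samples of 1 array, and black bars give mean ± SD (n = 4). The lines of Srxn1 run nearly parallel, and the groups of Gclc and Txn1 do not overlap.

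The NRF2 pair had the most negative and the most positive ratio of the 35 genes, Keap1 being level with Gpx3. Nfe2l2, which encodes NRF2, had levels of 11.12, 10.76, 10.97 and 10.96 in the IUGR samples of arrays 1 to 4, against 11.05, 11.74, 11.66 and 11.31 in the control samples. Its ratios were 0.07, -0.99, -0.70 and -0.36, for a fit of -0.49 ± 0.19 (0.711-fold) with an unadjusted p of 0.0548. Keap1, whose product targets NRF2 for degradation, had levels of 9.98, 9.76, 9.65 and 9.14 in the IUGR samples of arrays 1 to 4, against 9.94, 8.86, 8.77 and 8.84 in the control samples. The ratio of Keap1 was 0.53 ± 0.18 (1.45-fold), with an unadjusted p of 0.0353. On array 1 both genes were near 0, at 0.07 for Nfe2l2 and 0.04 for Keap1, and on arrays 2 to 4 Nfe2l2 was below 0 and Keap1 above it. Array 1 was also the array whose IUGR channel was brighter than its control channel before normalization, by a log2 of 1.68, against -1.58, -2.42 and -1.55 on arrays 2 to 4. With that brightness difference as a covariate, the ratio was -0.18 for Nfe2l2 and 0.25 for Keap1. That fit has 1 residual degree of freedom, and its ratios refer to equal brightness of both channels, which no array had. Brightness cannot be told apart from any other trait of array 1, and its part was not tested. The same covariate gave 0.28 for Srxn1, 0.23 for Txnrd2, 0.20 for Gss, 0.20 for Mt2A and -0.18 for Txn1. Of the NRF2 targets in this group, Hmox1, heme oxygenase, had levels of 9.90, 8.58, 8.74 and 8.68 in the IUGR samples of arrays 1 to 4, against 9.47, 8.27, 8.83 and 8.86 in the control samples. Both samples of array 1 held the highest Hmox1 levels of their groups, and its ratio was 0.12 ± 0.08. Nqo1, a quinone reductase, had a ratio of -0.15 ± 0.11.

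Glutathione is made by glutamate-cysteine ligase, with the catalytic subunit Gclc and the modifier subunit Gclm, and then by glutathione synthetase, Gss. The 2 enzymes of this path had opposite signs. Gclc had levels of 9.46, 9.24, 9.39 and 9.45 in the IUGR samples of arrays 1 to 4, against 9.52, 10.05, 9.95 and 9.76 in the control samples. All IUGR samples, at up to 9.46, lay below all control samples, which began at 9.52. The ratio was -0.44 ± 0.15 (0.739-fold), with a 95% interval from -0.82 to -0.05 and an unadjusted p of 0.0343. The Gclc ratio on array 1, at -0.06, was far smaller than the -0.81, -0.56 and -0.31 on arrays 2 to 4. With channel brightness as a covariate, in the fit with 1 residual degree of freedom, the Gclc ratio was -0.21. Gss had levels of 8.96, 8.84, 8.87 and 8.60 in the IUGR samples of arrays 1 to 4, against 8.87, 8.45, 8.34 and 8.37 in the control samples. Its ratio was 0.31 ± 0.10 (1.24-fold; unadjusted p 0.0296), and it was above 0 on every array. Gclm was not well above background in any of the 4 IUGR channels and was so in 2 of the 4 control channels. No direction or smallest fold can be read from this, because the control mean also takes in channels not well above background. The measured mean levels of Gclm were 6.07 in IUGR and 6.19 in control samples, with an adjusted p of 0.413 in limma. The measured Gclm ratio depended on the background correction, at -0.12 as processed here, -0.48 with a normexp offset of 0 (unadjusted p 0.0097) and -1.15 with Agilent's processed signals (unadjusted p 0.0265). With median centring in place of loess, the measured Gclm ratio was 0.53. The other 34 members were well above background in all 8 channels.

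Glutathione reductase (Gsr), which regenerates glutathione, had a ratio of 0.25 ± 0.15, and the mitochondrial glutaredoxin Glrx2 one of 0.15 ± 0.10. Glrx1 had ratios of 0.46, 0.73, -0.35 and -0.30, for a fit of 0.14 ± 0.09. Its sign differed between the dyes, which also held different samples, so dye and sample cannot be told apart. Among the glutathione transferases, which attach glutathione to other molecules, Gstm1 had a ratio of -0.15 ± 0.10, Gstp1 of 0.06 ± 0.09 and the microsomal Mgst1 of -0.03 ± 0.16. Mgst1 was the least uniform of them, at 0.04, -0.74, 0.47 and 0.11. A probe of a gene family, as of Gstm1 or a metallothionein, may also bind a near relative, which was not tested.

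The metallothioneins are small cysteine-rich proteins that bind zinc and copper and can take up reactive oxygen. Mt2A had levels of 14.86, 15.67, 15.30 and 15.50 in the IUGR samples of arrays 1 to 4, against 14.69, 14.66, 14.79 and 15.36 in the control samples. Its IUGR samples were above the control sample of each array, with 1.01 on array 2 and between 0.14 and 0.51 on the others, for a ratio of 0.46 ± 0.16 (1.37-fold; unadjusted p 0.0413). Mt1a had levels of 13.77, 14.20, 13.81 and 13.97 in the IUGR samples of arrays 1 to 4, against 13.70, 13.91, 13.81 and 14.25 in the control samples. Its ratio was 0.02 ± 0.09, with signs on both sides of 0. The Mt2A value came from a probe with 1 spot at chr19:11268168-11268227 of rn4, on the minus strand. Its sequence is shown because a second Mt2A probe gave another value, with the cysteine codons of its first reading frame in capitals (7 of 20 codons, and 0 stop codons).
Mt2A: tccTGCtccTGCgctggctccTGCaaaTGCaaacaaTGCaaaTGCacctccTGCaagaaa

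The second Mt2A probe, with 10 spots, lies nearer the 3′ end, at chr19:11267834-11267893. Its ratios were 0.38, 0.08, 0.12 and -0.42, for a fit of 0.04 ± 0.12 in limma across all probes, so the probe used for the gene and this one disagree. With the mean of both probes, Mt2A had a ratio of 0.25. Of the 35 genes, 4 had more than 1 probe. The Txnrd1 probes, for the cytosolic thioredoxin reductase, disagreed in sign, at -0.22 ± 0.14 for the brighter probe near the 3′ end and 0.35 ± 0.13 for the probe nearer the 5′ end. The Gpx2 probes gave similar values on each array, with fits of -0.32 and -0.42, as did the Gpx4 probes on arrays 2, 3 and 4, with fits of 0.18 and 0.23. The unadjusted p of the probes not chosen for the gene was 0.0186 for Gpx2, 0.0421 for Gpx4, 0.0515 for Txnrd1 and 0.781 for Mt2A.

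**Figure D3:**
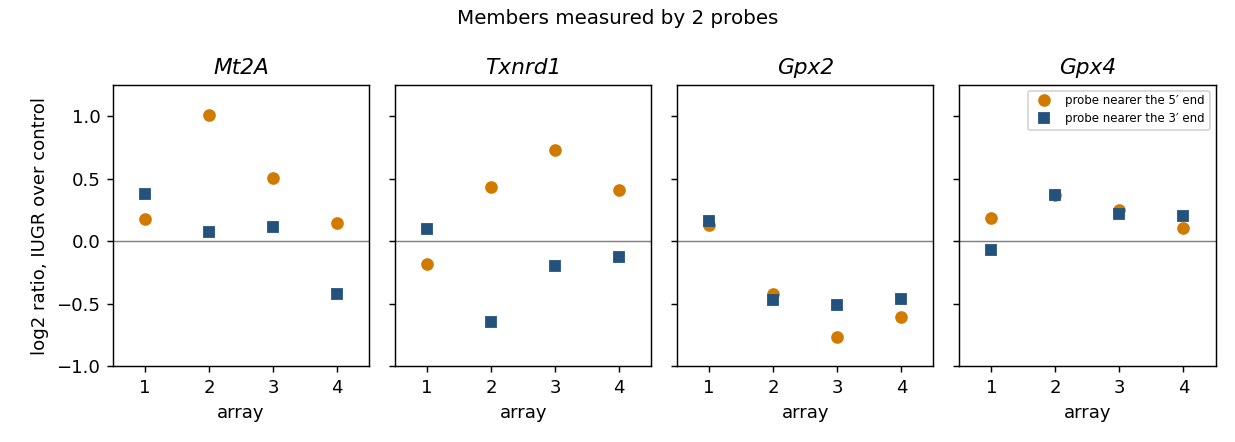
Log2 ratio of IUGR over control (y axis) on arrays 1 to 4 (x axis) for the 4 genes with 2 probes; circles are the probe nearer the 5′ end and squares the probe nearer the 3′ end. The circles and squares lie close together for Gpx2 and apart for Mt2A and Txnrd1.

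Set against the promoters shown above, the ratios of the 11 genes with an ARE core had a median of -0.11, with 5 above 0 and 1 (Mt2A) at an unadjusted p under 0.05. The 19 genes whose promoter held no ARE core had a median of 0.06, with 11 above 0 and 6 at an unadjusted p under 0.05. The 5 genes without a promoter entry had a median of 0.10. The ranges were -0.49 to 0.46 with the core and -0.44 to 0.53 without it, so they overlapped over nearly their whole length. The 2 metallothioneins, both with an MRE cluster, had ratios of 0.46 (Mt2A) and 0.02 (Mt1a). The Mt2A value, also the highest with the ARE core, depends on the probe. Its second probe, with 10 spots, gave 0.04 ± 0.12.

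**Figure D4:**
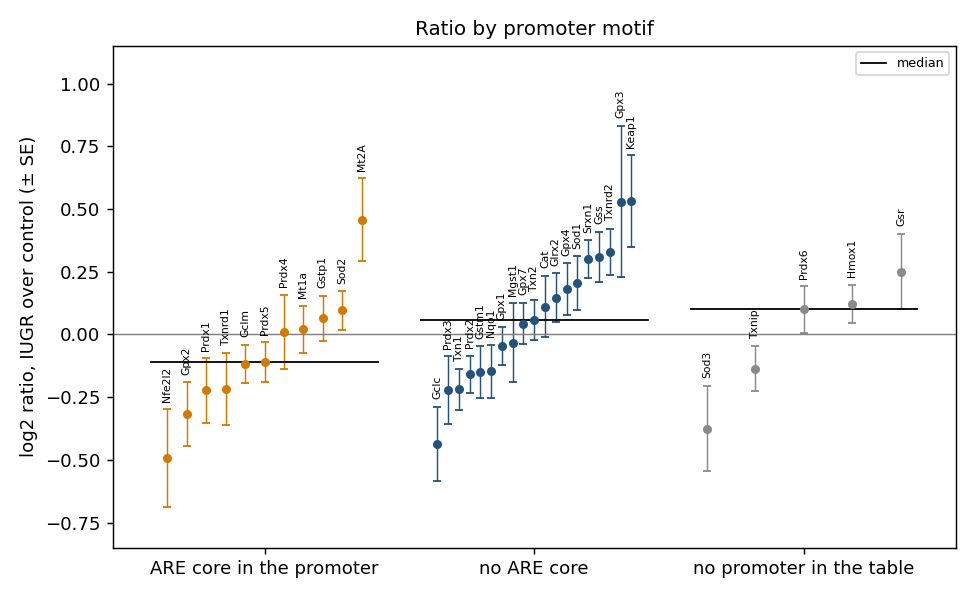
Fitted log2 ratio of IUGR over control ± SE (y axis) of the 35 genes, by whether the promoter in the table held the ARE core (x axis); horizontal lines are the medians of -0.11, 0.06 and 0.10. The points with and without the core cover nearly the same range.

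Other genes of the same pathways were read from lists drawn up beside the members, and no gene of any list passed the adjusted threshold. Of all genes tested, 7.13% were higher and 6.55% lower at an unadjusted p under 0.05 in limma. The counts of all the pathway lists, here and below, are to be read beside these shares. Of the other glutathione transferases, 18 of 21 were tested, with a median ratio of -0.05. Of these, 1 was higher and 2 were lower at an unadjusted p under 0.05, namely Gstm4 at 0.28 ± 0.11, Gstcd at -0.28 ± 0.10 and Gsta5 at -0.58 ± 0.22. Of the genes that supply NADPH, 13 of 15 were tested, with a median of 0.04. The 1 with an unadjusted p under 0.05 was Rpe, an isomerase of the pentose phosphate path, at -0.44 ± 0.16. Of the genes for glutathione transport and turnover, 20 of 21 were tested, with a median of 0.08, 2 higher and 3 lower. Ggt5, a gamma-glutamyl cleaving enzyme of the cell surface, was at 0.60 ± 0.22, Hagh, a glyoxalase, at 0.27 ± 0.10, Lap3, a peptidase, at -0.42 ± 0.15 and Slc1a1, a glutamate and cysteine transporter, at -0.27 ± 0.10.

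Of the other NRF2 pathway genes, 26 of 29 were tested, with a median of 0.02, 1 higher and 1 lower. Akr7a3, an aldehyde reductase, was at -0.68 ± 0.13, with a ratio below 0 on all 4 arrays (-0.43, -0.86, -0.95 and -0.48), and Mafg, a small Maf partner of NRF2, was at 0.46 ± 0.16. Of the other thiol and selenium redox genes, 27 of 38 were tested, with a median of -0.03, 0 higher and 3 lower. Sepx1, a methionine sulfoxide reductase, was at -0.29 ± 0.07 and below 0 on every array, Glrx5, which serves iron-sulfur clusters, was at -0.33 ± 0.12, and Oxr1, an oxidation resistance gene, at -0.95 ± 0.34. Of the genes that produce superoxide or hydrogen peroxide, 21 of 27 were tested, with a median of -0.02, 0 higher and 3 lower. Duox2, an oxidase that makes hydrogen peroxide, was at -0.53 ± 0.10, and Duoxa2, the factor that DUOX2 needs to mature, was at -0.22 ± 0.07. Both were below 0 on all 4 arrays, Duoxa2 at -0.23, -0.18, -0.24 and -0.23. Rac2, a small GTPase of the phagocyte oxidase, was at -0.39 ± 0.10. Of the metal handling genes, 11 of 13 were tested, with a median of 0.04, and the zinc importer Slc39a14, at 0.40 ± 0.13, was the 1 with an unadjusted p under 0.05.

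**Figure D5:**
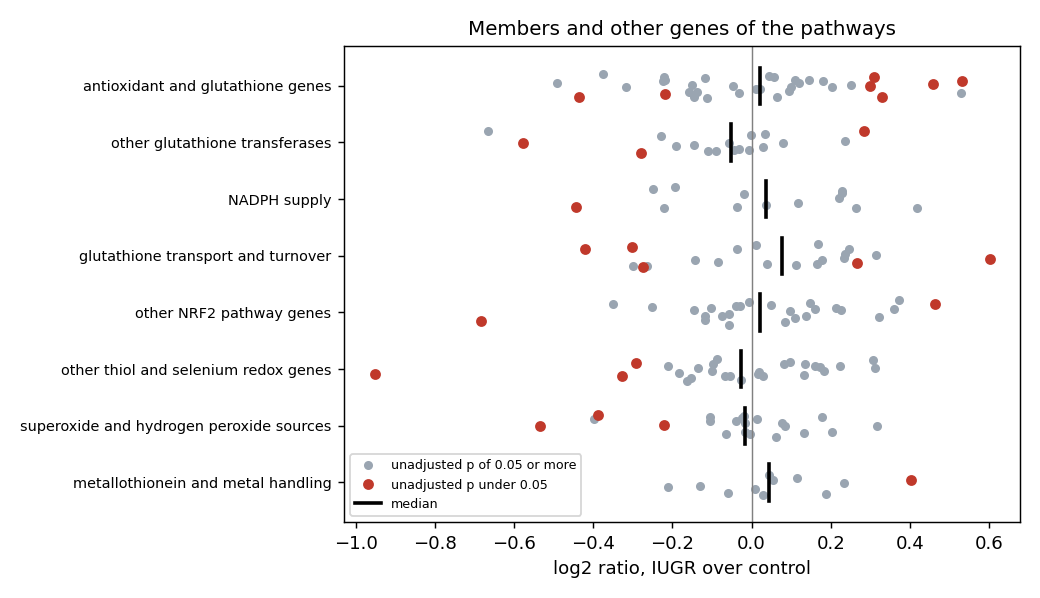
Fitted log2 ratio of IUGR over control (x axis) of the members and the tested genes of 7 lists (rows); red points have an unadjusted p under 0.05, grey points do not, and black bars are the medians. The medians of the lists lie between -0.05 and 0.08.

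Other cell types could be held by isolated islets, so their markers were read beside these results. All 14 endocrine markers were tested, with a median ratio of 0.18, and their summed intensity was 645600 to 1412270 in IUGR and 629576 to 1191950 in control samples. At an unadjusted p under 0.05, 3 were higher and 1 lower, and their mean ratio was 0.29, 0.53, -0.02 and -0.13 on arrays 1 to 4. Ins1, Ins2, Iapp and Gcg were above 0 on arrays 1 and 2 and below 0 on arrays 3 and 4. Abcc8 had the opposite signs, Slc2a2 and Pcsk2 were above 0 on every array and Sst below 0 on every array. The remaining endocrine markers had other patterns. Arrays 1 and 2 differed from arrays 3 and 4 in dye and in samples, which cannot be told apart. All 16 tested acinar markers, of 18, had a ratio above 0, with a mean of 1.75 on array 3 and between -0.14 and 0.36 on the other arrays; their summed intensity was 760153 to 2002330 in IUGR and 577903 to 1422170 in control samples. Of 12 lymphocyte markers, 10 were lower in IUGR at an unadjusted p under 0.05, with summed intensities of 1606 to 2211 in IUGR and 1845 to 7408 in control samples. Their mean ratio was 0.02, -0.32, -1.29 and -0.73 on arrays 1 to 4. Of 13 tested macrophage markers (14 listed), 7 were higher and 2 lower at the same threshold, with sums of 27450 to 50772 in IUGR and 27332 to 48302 in control samples. Their mean ratio was 0.40, 0.31, -0.06 and -0.05 on arrays 1 to 4. Of 6 tested red blood cell markers (13 listed), 5 were higher at that threshold, with sums of 168949 to 468933 in IUGR and 194169 to 254340 in control samples. Their mean ratio was -0.50, 0.14, 1.19 and 0.93 on arrays 1 to 4, so array 1 had the opposite sign. Of all genes tested, 7.13% were higher and 6.55% lower at that threshold. The part of these cell types in the ratios of the antioxidant genes was not tested.

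Counted in the same way, 0 of 10 duct markers were higher and 3 lower, with sums of 35057 to 42379 in IUGR and 31971 to 43044 in control samples. Of 9 tested granulocyte and mast cell markers (11 listed), 2 were higher, with sums of 5892 to 9967 in IUGR and 3221 to 16275 in control samples. Of 10 fibroblast and stellate markers, 3 were higher and 2 lower, of 10 endothelial markers 2 were higher and 1 lower, and of 4 tested adipocyte markers (6 listed) 3 were higher. The arrays also differed as a whole: Pearson's r across all genes, which are not independent replicates, was 0.13, -0.23 and -0.30 between array 1 and arrays 2, 3 and 4, and 0.37 to 0.63 among arrays 2, 3 and 4. The mean ratio of the 35 members was 0.13, 0.03, 0.02 and -0.13 on arrays 1 to 4, against 0.002, 0.04, 0.04 and 0.002 over all genes tested. On these arrays 27, 18, 17 and 11 of the members were above 0. The share of all genes above 0 on each array was not counted. No spot was saturated (0 on each array).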

How the data were processed

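RNA abundance in 4 IUGR and 4 control islet samples was measured on 4 dual-dye arrays on 1 slide. Per the file headers, the scanner values come from Agilent Feature Extraction 10.10.1.1 (protocol GE2_1010_Sep10, design 28282, probe coordinates in rn4), and the deposited mean signals and median local backgrounds are in units of intensity. The deposited value table holds log2 ratios of Cy5 over Cy3, as checked against the scanner values (r of 0.987 to 0.998 with loess ratios without background subtraction); its column medians were 0.008, -0.026, -0.014 and -0.029, and its normalization is not given in the sources used here. The submitters' processing notes name limma without a version.

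In R 4.3.3 with limma 3.58.1, background was corrected with normexp (offset 50), spots with an outlying local background were given the array's median background, and loess was run within arrays, with control and outlying spots at weight 0. Ratios were turned to IUGR over control. Levels are channel intensities after quantile normalization of mean brightness. Of several probes of a gene, the brightest on average was used. Genes measured on all 4 arrays and well above background in at least 2 of 4 IUGR or 2 of 4 control channels were tested, with a dye term, 2 residual and 2.75 prior degrees of freedom, and Benjamini-Hochberg adjustment over 20012 genes. The number of arrays limits the precision. The fit was tested on simulated data.

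The members, lists and alternatives were chosen with earlier results of these data known. Values per sample are given for members with an unadjusted p under 0.05 and for Sod1, Sod2, Cat, Gpx1, Prdx1, Txn1, Txnip, Nfe2l2, Gclc, Hmox1 and Mt1a, and up to 4 genes with the smallest p per pathway list. Sequences are RefSeq's (GRCr8) or the array's.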

Additional observations from a re-analysis of the deposited data

Results flagged for a closer look

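Gpx2 had a log2 ratio of IUGR over control of 0.17 on array 1, away from the other 3 arrays, which lay between -0.51 and -0.46. Its gap to the nearest array was 0.925 of the whole range of the 4 arrays. Of 35 members tested in this way, 1 stood apart, and chance gives about 1 in 20. On the second Gpx2 probe array 1 was also the only one above 0, at 0.13 on array 1, against -0.42, -0.77 and -0.61 on arrays 2 to 4.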

How the results depend on the processing

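With 18 alternatives, 19 of the 35 members kept 1 sign and 16 changed it under at least 1. The count of members past the adjusted threshold stayed at 0 in all but 1 setting, channel brightness as a centred covariate, added after seeing the data. There 9 of 35 members passed (Sod3, Gpx2, Txnrd2, Nfe2l2, Keap1, Gclc, Gss, Srxn1 and Mt2A), beside 3499 of all 20012 genes tested. That fit left 1 residual degree of freedom. As planned, uncentred, brightness as a covariate gave 0 members of 7 genes, and median centring gave 0 of 15. Members at an unadjusted p under 0.05 numbered 3 with processed signals (8.57%, against 8.97% of all genes), 4 with outlying backgrounds left out (11.4%, against 7.42%), 4 with them kept as measured (11.4%, against 7.40%), 2 with median centring (5.71%, against 5.85%), 2 with brightness (5.71%, against 7.14%) and 16 with centred brightness (45.7%, against 35.0%). Leaving out 1 array gave 0 to 14, where 2.31% to 31.0% of all genes were counted. Each of those fits kept the dye term and also left 1 residual degree of freedom. In a fit of separate channel levels, with the replicate number as a block (replicate block) and no pairing by array, the count was 3 (8.57%, against 11.03%). Same-numbered samples deviated together at r of -0.05, -0.28, 0.09 and -0.17, so the numbers were not used as pairs. The samples of 1 array did so at r of 0.33, 0.09, 0.11 and 0.29 on arrays 1 to 4.

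Median centring moved the members' median to -0.25 and that of all genes to -0.05. It turned the ratio of Srxn1 to -0.033, Sod1 to -0.18, Glrx2 to -0.18, Gpx4 to -0.20, Sod2 to -0.21, Prdx6 to -0.23, Txn2 to -0.25, Gstp1 to -0.29, Gpx7 to -0.30, Prdx4 to -0.35, Mt1a to -0.36, Nqo1 to 0.11 and Gclm to 0.53. Mt1a was -0.0064 with processed signals and -0.059 with brightness, Mgst1 was 0.16 with brightness, Txnrd1 was 0.065 with the mean of its probes, and Prdx4 was -0.037 with outlying backgrounds left out and -0.036 with them kept. Leaving out 1 array turned Cat (-0.035 to 0.26), Gstp1 (-0.0072 to 0.13), Gpx7 (-0.014 to 0.10), Mt1a (-0.051 to 0.093), Mgst1 (-0.23 to 0.16) and Prdx4 (-0.13 to 0.16). The cause was not tested. Gclm had no value with the filter on all 8 channels.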
